A study of Mus musculus with 6 samples.

Results

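The transcripts described here are the expressed antisense noncoding genes of mouse adult fibroblasts (MAFs), that is, the genes whose biotype in the table of counts is antisense and whose raw counts summed to at least 1000 over the 6 libraries. The genes were thus selected on their summed counts, which took 44 of the 1838 antisense genes and of the 43346 genes in the table, and 535 antisense genes held 0 counts in all libraries. The sum runs over control and senescent cells together, and the difference between them was not used. A gene with few counts in either group could still pass through the other, so the largest changes below are not independent of the selection. Just inside the limit were *Gm13111*, *Gm16001* and *Gm10501* with summed counts of 1071, 1035 and 1029, and just outside it were *1500015A07Rik*, *Gm26982* and *Gm20633* with 932, 929 and 881.

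MAFs are primary cells grown from ear tissue of adult C57BL6/J females, and all cells compared here were wild type. The 3 control samples were sham irradiated and the 3 senescent samples received 20 Gy of X-rays and were kept for 21 days before use, at 3% oxygen in either group. Both groups were treated with dexamethasone, a glucocorticoid that aligns the circadian clocks of cultured cells, at 100 nM for 2 hours and were collected 12 hours later, so that each gene was measured at a single time. The ages of the mice, and whether cells of several mice were pooled, are not given in the sources used here. The labels do not say that the replicates came from separate cultures, and the p-values therefore measure the spread between these samples alone, which may be technical.

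Antisense transcripts are made from the strand opposite to another gene. Many begin close to the start of a protein-coding gene and run away from it, others are made from within an intron of their host or converge on its end, and a few are long imprinted RNAs, such as *Airn* and *Kcnq1ot1*, that are made from the paternal chromosome and keep neighbouring genes silent on it. Some serve as precursors of microRNAs, such as *Dnm3os*, which carries the hairpins of miR-199a and miR-214. Senescent cells stop dividing for good and secrete cytokines, proteases and growth factors, a program in which the AP-1 transcription factors, including *Jun*, take part.

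The sequences that the results turn on are given here before the values. Mature microRNAs made from *Dnm3os* are shown because their host had the largest count of all the antisense genes selected. Sequence and position are from RefSeq on GRCm38.p6 (the assembly that mm10 names), and capitals mark the seed, bases 2 to 8 from the 5′ end. None of the 4 seeds is shared with another of them. *Mir199a-2* lies at chr1:162217814-162217923 and *Mir214* at chr1:162223368-162223477, both within *Dnm3os* at chr1:162217623-162225550 on the plus strand.
mmu-miR-199a-5p: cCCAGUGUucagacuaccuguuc
mmu-miR-199a-3p: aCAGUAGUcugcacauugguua
mmu-miR-214-5p: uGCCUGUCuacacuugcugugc
mmu-miR-214-3p: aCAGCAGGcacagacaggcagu

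The start regions of 5 genes are shown next, each as 300 bases from 250 before the RefSeq start to 50 after it, 5′ to 3′ in the direction of the named gene, with CpG dinucleotides in capitals. *Junos* (chr4:95052067-95052366, plus strand) and *Map2k3os* (chr11:60931818-60932117, minus strand) are shown because each rose together with the coding gene on the other strand. The window of *Junos* shares 194 bases with that of *Jun*, and the window of *Map2k3os* shares 286 bases with that of *Map2k3*. The window of *Brip1* (chr11:86201144-86201443, minus strand) is shown because 74 of its bases are the first bases of *Brip1os*, and both genes fell. *Dnm3os* (chr1:162217373-162217672, plus strand) had the highest count, and *Gm15987* (chr6:128974980-128975279, minus strand) had the largest increase and was the 1 antisense gene whose window held no CpG.
Junos: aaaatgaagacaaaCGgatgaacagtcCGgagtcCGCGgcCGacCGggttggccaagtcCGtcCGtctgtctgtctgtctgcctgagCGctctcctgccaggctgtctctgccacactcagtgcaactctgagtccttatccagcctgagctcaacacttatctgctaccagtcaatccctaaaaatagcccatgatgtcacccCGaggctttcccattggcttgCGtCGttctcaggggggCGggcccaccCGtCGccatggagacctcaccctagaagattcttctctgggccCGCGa
Map2k3os: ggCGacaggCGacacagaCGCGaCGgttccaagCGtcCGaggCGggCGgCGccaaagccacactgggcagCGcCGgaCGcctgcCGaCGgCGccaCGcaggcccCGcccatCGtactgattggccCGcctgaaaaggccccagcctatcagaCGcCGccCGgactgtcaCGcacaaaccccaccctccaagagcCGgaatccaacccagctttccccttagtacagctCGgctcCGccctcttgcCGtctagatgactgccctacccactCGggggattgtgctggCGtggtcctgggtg
Brip1: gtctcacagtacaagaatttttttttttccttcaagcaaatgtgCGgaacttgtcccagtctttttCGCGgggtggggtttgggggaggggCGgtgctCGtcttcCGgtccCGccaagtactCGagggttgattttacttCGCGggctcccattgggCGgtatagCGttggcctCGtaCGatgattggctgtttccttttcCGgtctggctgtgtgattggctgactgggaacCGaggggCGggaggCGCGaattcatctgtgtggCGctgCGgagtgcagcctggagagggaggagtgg
Dnm3os: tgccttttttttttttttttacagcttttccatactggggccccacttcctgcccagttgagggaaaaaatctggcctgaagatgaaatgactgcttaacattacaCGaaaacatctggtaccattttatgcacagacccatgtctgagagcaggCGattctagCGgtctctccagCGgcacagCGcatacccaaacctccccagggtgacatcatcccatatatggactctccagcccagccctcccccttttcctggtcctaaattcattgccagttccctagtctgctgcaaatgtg
Gm15987: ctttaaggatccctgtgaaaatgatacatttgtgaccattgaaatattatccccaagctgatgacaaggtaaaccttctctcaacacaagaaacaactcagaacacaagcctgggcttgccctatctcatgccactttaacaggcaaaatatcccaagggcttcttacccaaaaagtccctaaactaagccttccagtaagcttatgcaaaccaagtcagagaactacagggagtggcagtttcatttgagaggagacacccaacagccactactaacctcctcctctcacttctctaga

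RefSeq held such a window for 27 of the 44 antisense genes. The windows above held 17 CpG for *Junos*, 30 for *Map2k3os*, 21 for *Brip1*, 5 for *Dnm3os* and 0 for *Gm15987*. The median over the 27 windows was 16 CpG with a GC content of 58%, against 7 CpG and 52.7% over all 32851 windows, and 20 of the 27 lay above the median CpG of all windows. The AP-1 motif TGANTCA, searched on both strands, was found in 1 of the 27 windows, that of *Gm15417*, and in 7.81% of all windows. The E-box CACGTG, the sequence that BMAL1 and its partner CLOCK recognise, was found in those of *Gm15050* and *Rab10os* and in 7.15% of all windows. Neither the CRE motif TGACGTCA (1.79% of all windows) nor the paired half-sites of the glucocorticoid receptor (0.475%) was found in any of the 27. Only exact matches were searched, and near matches, such as TGATGTCA in the window of *Junos*, were not counted. The AP-1 motif that the paper reports allows only C or G at the base written N above. The RefSeq start lay within 100 bases of the 5′ end in the table for 21 of the 27 genes. That of *Junos* lay 783 bases away and upstream of *Jun*, whereas the span of *Junos* in the table reaches 689 bases into *Jun*.

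Total counts per library were between 50288454 and 82229553, and a gene with 0 counts in a library may have had up to 3, which is a level of 0.0355 to 0.0613 CPM (counts scaled to a common library total). The antisense genes held 0.0580% to 0.0604% of all counts in control libraries. In senescent replicates 1, 2 and 3 they held 0.0401%, 0.0401% and 0.0480%. This share leaned on *Dnm3os* and *Brip1os*, the most abundant of them. *Dnm3os* had 8238, 9430 and 8039 counts in control and 2175, 3344 and 4794 in senescent libraries. *Brip1os* had 6708, 7835 and 6247 against 2073, 2868 and 3531. All antisense genes selected had 30767, 35788 and 29651 against 21573, 31053 and 39477. The lower share thus does not describe these genes as a class, whose median log2 fold change was 0.016. Senescent replicate 3 stood apart from the other senescent libraries, with a median squared count difference of 13.9 and 19.2 times the sampling noise from replicates 1 and 2, against 2.14 times between those. Fibroblast markers, such as *Col1a1*, were abundant in all libraries, at a summed 63764 to 65730 CPM in control and 47958 to 53450 CPM in senescent cells. Of the 10 tested, 3 were higher and 5 lower in senescent cells. Markers of chondrocytes (8 genes) summed to 4895 to 5466 CPM in control and 343 to 432 CPM in senescent cells, and all 7 that could be tested were lower. Markers of leukocytes, endothelium, keratinocytes, skeletal muscle, and Schwann cells and melanocytes summed to at most 26.6 CPM in any library. All 4 tested leukocyte and all 4 tested endothelial markers were higher in senescent cells, at a summed 5.53 to 6.03 against 9.61 to 11.5 CPM and 2.43 to 2.83 against 7.38 to 8.08 CPM. Keratinocyte markers summed to 16.2 to 17.0 against 23.2 to 23.9 CPM (2 higher and 1 lower of 5 tested), and no marker of any list was at 0 in all libraries. Of 4 tested Schwann cell and melanocyte markers, 1 was higher and 2 were lower. Beside these counts, 36.2% of all tested genes were higher and 34.1% lower. Whether cell content differed, and what part it had in the values below, was not tested. In bulk RNA, fewer cells of a type and less RNA per cell cannot be told apart.

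The libraries were made with a stranded kit, but the strand setting of the counting is not given in the sources used here, so reads of an antisense gene and of the exons it overlaps cannot be told apart. Of the 41 antisense genes matched in the GENCODE M21 annotation, those with exons to compare had a median of 8.50% of their exon bases inside exons of other genes. This share was 0 in 9 genes and above 50% in 4, with the highest, 80.8%, in *Gm10501*. In the whole table, 42 antisense genes lay wholly within exons of other genes, and none of these had more than 100 counts.

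The antisense genes were spread over 15 chromosomes. Their total exon length had a median of 2843 bases, against 789 for the other antisense genes. Selection on raw counts, which are not scaled by length, favours long genes, and the others include the 535 with 0 counts. The selected genes ranged from *Rab26os* with 497 bases to *Kcnq1ot1*, a single exon of 84395 bases. By position, 12 overlapped the start of a coding gene head to head, 10 lay inside the span of a coding gene, 8 overlapped its end tail to tail, 4 contained a coding gene, 8 overlapped none, and 2 had no strand in the annotation used. An opposite-strand coding gene began within 2000 bases of the 5′ end in 23 of 41 antisense genes with a known strand (56.1%), and in 446 of 1749 other antisense genes (25.5%). This window was chosen after the data had been seen. The label held less well for 4 genes, since M21 lists *Inafm2* as protein coding, *4632427E13Rik* as a bidirectional promoter RNA, *3110056K07Rik* as a processed transcript and *Gm16001* as a lincRNA, and RefSeq also lists *Inafm2* as protein coding.

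Control and senescent cells were then compared for each of the 44 genes, all of which had enough counts for the test. In senescent cells 14 antisense genes were higher, 15 were lower and 15 gave no call at an adjusted p under 0.05 (quasi-likelihood test of edgeR, Benjamini-Hochberg). Among all 17589 genes tested, 36.2% were higher and 34.1% lower, among those with a summed count of at least 1000 these shares were 33.2% and 39.9%, and among all 333 antisense genes tested they were 28.2% and 21.3%. The median log2 fold change of the antisense genes was 0.016, against 0.0085 for all genes and 0.086 for all tested antisense genes. With the limit of an absolute log2 fold change over 1 at an unadjusted p under 0.05, 6 were higher and 5 lower, against 17.8% and 12.3% of all genes tested. Control and senescent values did not overlap in 33 of the 44, against 75.3% of all genes. Without senescent replicate 3, 15 were higher and 19 lower.

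**Figure D1:**
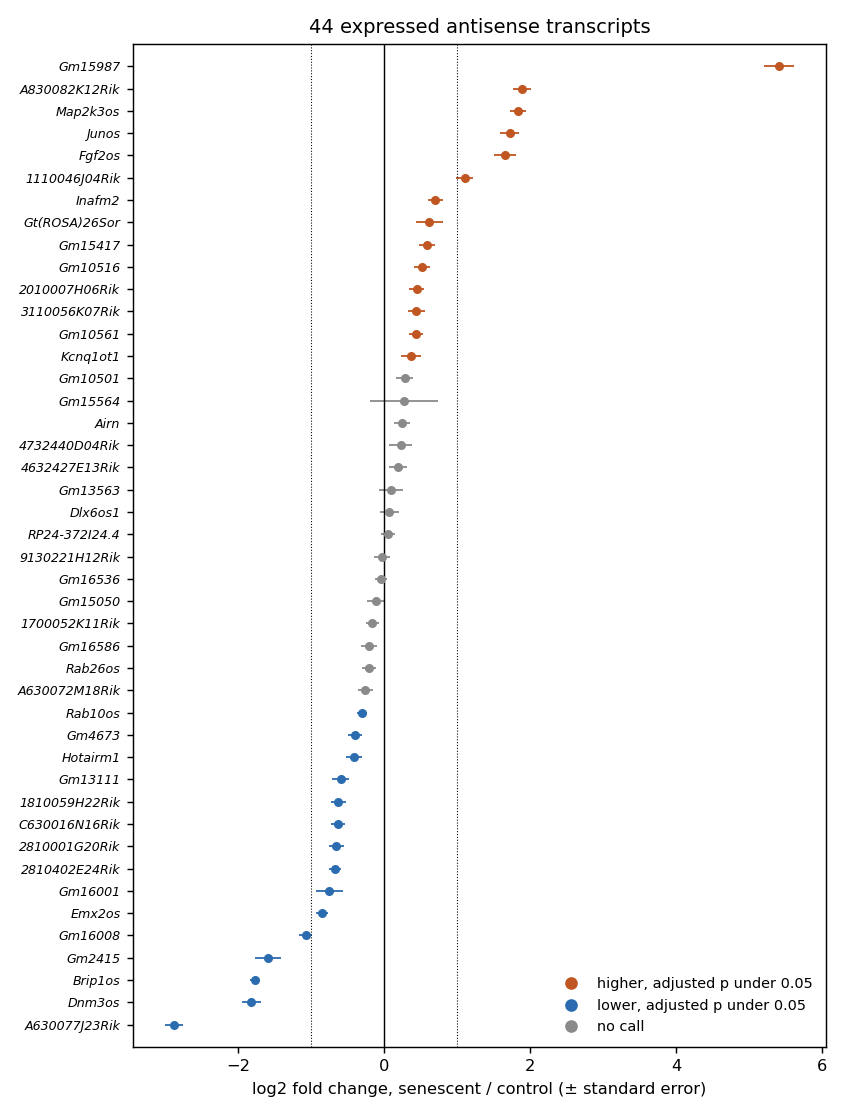
The log2 fold change (senescent over control, x axis) of each of the 44 antisense genes is plotted with its standard error from the fit over 3 control and 3 senescent samples, ordered from the largest increase to the largest decrease. Color gives the call at an adjusted p under 0.05, dotted lines mark a log2 fold change of 1 and -1, and 6 genes lie beyond the right line and 5 beyond the left.

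The antisense gene with the largest increase was *Gm15987* (ENSMUSG00000085786, chr6:128951204-128975029, minus strand), which lies inside the span of *Clec2g*, a C-type lectin gene. It was at 0.341, 0.218 and 0.184 CPM in control replicates 1, 2 and 3 and at 9.83, 9.55 and 12.2 CPM in senescent replicates 1, 2 and 3, after scaling by the TMM method. All senescent libraries were thus far above all control libraries, in which 17, 13 and 9 reads were counted. With 39 counts in control and 2334 in senescent libraries, it reached the minimum of 1000 only through senescent cells and thus had to differ between the groups. It was left out where each library had to hold 10 counts or more. The log2 fold change was 5.41 ± 0.21 (standard error), and the adjusted p was 2.86e-07 (quasi-likelihood test of edgeR with Benjamini-Hochberg adjustment, as for all single genes below). A microRNA row of the same name (ENSMUSG00000098359), 56 bases within it, had 0, 1 and 1 counts in control and 38, 44 and 56 in senescent libraries. *Clec2g* itself was too low to be tested, with at most 10 counts in a control and 15 in a senescent library.

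Next came a group of genes at or near the start of regulatory genes. *A830082K12Rik* (ENSMUSG00000087143, chr13:78198017-78279391, plus strand) overlaps the start of *Nr2f1*, which encodes the orphan nuclear receptor COUP-TF1. It was at 2.49, 2.66 and 2.62 CPM in control and at 9.35, 8.44 and 10.96 CPM in senescent replicates, with a log2 fold change of 1.89 ± 0.12 (adjusted p = 4.79e-06). *Map2k3os* (ENSMUSG00000042549, chr11:60920917-60931867, minus strand), upstream of the gene of the p38 kinase activator MKK3, was at 2.67, 2.61 and 2.08 CPM in control and 9.09, 8.37 and 8.91 CPM in senescent replicates, a log2 fold change of 1.84 ± 0.11 (adjusted p = 4.00e-06). *Junos* (ENSMUSG00000087366, chr4:95051534-95167318, plus strand), which starts at the AP-1 gene *Jun*, was at 2.25, 2.78 and 2.21 CPM in control and at 7.85, 7.29 and 8.82 CPM in senescent replicates, a log2 fold change of 1.72 ± 0.13 (adjusted p = 1.05e-05). In these 3 genes the lowest senescent library was more than 2-fold above the highest control library. A control library held at most 159 counts of *A830082K12Rik*, 156 of *Map2k3os* and 166 of *Junos*. At its control level each would have missed the minimum of 1000, so these increases are not independent of the selection.

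Also raised were 2 genes inside the spans of coding genes. *Fgf2os* (ENSMUSG00000054779, chr3:37335332-37349740, minus strand), none of whose 1441 exon bases lie in exons of other genes, is made from within *Fgf2*, the gene of basic fibroblast growth factor. It rose from 1.12, 1.54 and 1.12 CPM to 4.35, 3.85 and 3.83 CPM, a log2 fold change of 1.65 ± 0.15 (adjusted p = 3.25e-05). *1110046J04Rik* (ENSMUSG00000085457, chr13:33935567-33960181, plus strand), inside the serine protease inhibitor gene *Serpinb6a*, rose from 3.25, 2.98 and 2.80 CPM to 6.28, 5.93 and 7.19 CPM (log2 fold change 1.10 ± 0.11, adjusted p = 6.48e-05). Both separated the groups fully. Most counts of either gene came from senescent cells, with at most 92 counts of *Fgf2os* and 178 of *1110046J04Rik* in a control library.

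**Figure D2:**
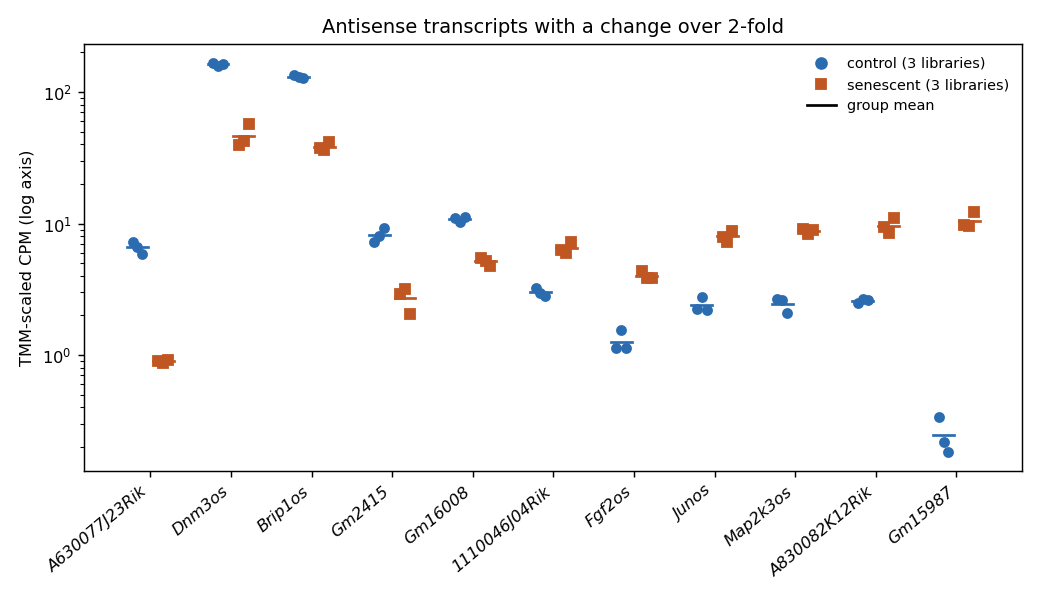
TMM-scaled CPM (log axis) of the 11 antisense genes with an absolute log2 fold change over 1 is plotted for each library, circles for control and squares for senescent samples, with a line at each group mean. The 5 genes on the left were lower and the 6 on the right were higher in all 3 senescent libraries than in any control library.

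The 2 most abundant antisense genes fell. *Dnm3os* (ENSMUSG00000078190), made from within the span of *Dnm3*, the gene of the membrane-fission GTPase dynamin 3, was at 165.2, 157.8 and 164.3 CPM in control and at 39.2, 42.2 and 56.8 CPM in senescent replicates. The group means of 162.4 ± 4.02 and 46.1 ± 9.40 CPM (SD, n = 3) gave a log2 fold change of -1.82 ± 0.13 (adjusted p = 9.42e-06 by edgeR), and of -1.99 without senescent replicate 3. The row of *Mir214* fell in parallel, with 219, 285 and 233 counts in control and 47, 63 and 72 in senescent libraries, and that of *Mir199a-2* held 35, 57 and 54 against 21, 23 and 22 counts. Each of these rows is 110 bases of the single exon of *Dnm3os*, and they account for the 220 exon bases that it shares with other genes. The libraries were made from poly(A) RNA and do not measure the mature microRNAs printed above. *Brip1os* (ENSMUSG00000085208, chr11:86201370-86304443, plus strand), which starts beside the DNA helicase gene *Brip1*, was at 134.5, 131.1 and 127.7 CPM in control and at 37.4, 36.2 and 41.8 CPM in senescent replicates, a log2 fold change of -1.77 ± 0.07 (adjusted p = 3.40e-07).

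*A630077J23Rik* (ENSMUSG00000086864, chr4:43756123-43759464) had the largest decrease, from 7.30, 6.64 and 5.82 CPM in control to 0.902, 0.871 and 0.912 CPM in senescent replicates, a log2 fold change of -2.88 ± 0.13 (adjusted p = 5.40e-07). *A630077J23Rik* had 364, 397 and 285 counts in control libraries and 50, 69 and 77 in senescent libraries. At its senescent level it would have missed the minimum of 1000, so its decrease is not independent of the selection. It overlaps no coding gene of the table, and its nearest, the olfactory receptor gene *Olfr159*, lay 10586 bases away with 9 counts in all. *Gm2415* (ENSMUSG00000086119, chr9:118890075-118926455, minus strand), which overlaps the end of the integrin gene *Itga9* and the start of the phosphatase gene *Ctdspl*, fell from 7.20, 7.999 and 9.24 CPM to 2.92, 3.17 and 2.05 CPM (log2 fold change -1.59 ± 0.18, adjusted p = 9.58e-05). *Gm16008* (ENSMUSG00000087381, chr4:156022008-156031643, minus strand), whose span contains *Tnfrsf18*, the gene of the T cell costimulatory receptor GITR, fell from 11.05, 10.2 and 11.2 CPM to 5.48, 5.22 and 4.74 CPM (log2 fold change -1.07 ± 0.09, adjusted p = 2.17e-05). In these genes, as in *Dnm3os* and *Brip1os*, the highest senescent library was below the lowest control library. The chondrocyte markers fell in the same samples, and whether the decrease of any of these genes went with cartilage cells was not tested.

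Among changes under 2-fold, *Emx2os* (ENSMUSG00000087095, chr19:59425104-59458635, minus strand), opposite the homeobox gene *Emx2*, fell from 13.9, 14.6 and 15.0 CPM to 7.87, 7.63 and 8.63 CPM (log2 fold change -0.85 ± 0.08, adjusted p = 4.49e-05). *Gm16001* fell from 3.39 to 3.88 CPM in control to 1.56 to 2.499 CPM in senescent cells (log2 fold change -0.75 ± 0.18, adjusted p = 0.0069), and *2810402E24Rik* from 9.58 to 10.1 CPM to 5.77 to 6.61 CPM (log2 fold change -0.67 ± 0.09, adjusted p = 0.00022). *Inafm2* rose from 17.4, 15.96 and 15.7 CPM to 23.9, 25.6 and 30.3 CPM (log2 fold change 0.70 ± 0.10, adjusted p = 0.00045). These groups did not overlap.

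*Gt(ROSA)26Sor* (ENSMUSG00000086429, chr6:113067428-113077333, minus strand), the transcript of the ROSA26 locus into which transgenes are often placed, was at 8.44, 8.85 and 8.58 CPM in control and at 10.8, 11.2 and 17.7 CPM in senescent replicates. The log2 fold change of 0.62 ± 0.19 (adjusted p = 0.017) leaned on senescent replicate 3, without which it was 0.36 (adjusted p = 0.00038), and the call was lost without control replicate 1 (adjusted p = 0.052) or control replicate 3 (adjusted p = 0.051). In that library the nuclear transcript *Malat1* was also high, at 3001 CPM against 2190 and 1844 CPM in senescent replicates 1 and 2 and 836 to 1357 CPM in control, whereas *Neat1*, also a nuclear transcript, was at 875 CPM in that library against 901 and 906 CPM in the other senescent replicates and 673 to 718 CPM in control. The part of nuclear RNA in the difference was not tested.

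Among the other abundant genes, *Gm16586* gave no call and *Rab10os* fell by less than 2-fold. *Gm16586* (ENSMUSG00000089788, chr1:178321108-178324171), which has no strand in the annotation used and overlaps the respiratory chain assembly gene *Cox20* and *Gm28062*, was at 36.2, 35.0 and 34.4 CPM in control and 28.0, 27.5 and 36.1 CPM in senescent replicates. Senescent replicate 3 lay within the control range, and there was no call (log2 fold change -0.20 ± 0.11, adjusted p = 0.13). Without that library the log2 fold change was -0.34 (adjusted p = 2.84e-05). *Rab10os* (ENSMUSG00000079179, chr12:3235504-3250377, plus strand), which meets the end of the vesicle GTPase gene *Rab10*, fell from 23.5, 22.7 and 24.0 CPM to 17.7, 19.8 and 19.4 CPM (log2 fold change -0.30 ± 0.07, adjusted p = 0.0066).

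*Airn* and *Kcnq1ot1* were the 2 imprinted antisense RNAs among the genes selected, of 11 genes listed, 5 of which could be tested. *Kcnq1ot1* (ENSMUSG00000101609, chr7:143212155-143296549, minus strand) was at 18.4, 17.1 and 17.1 CPM in control and at 19.3, 20.8 and 28.1 CPM in senescent replicates. Its log2 fold change was 0.37 ± 0.14 (adjusted p = 0.043), and 0.20 without senescent replicate 3 (adjusted p = 0.011). The call was lost without control replicate 1, 2 or 3 (adjusted p = 0.072, 0.11 and 0.11). *Airn* (ENSMUSG00000078247, chr17:12741311-12860122, plus strand) was at 7.34, 6.28 and 7.23 CPM in control and 8.34, 7.37 and 9.08 CPM in senescent replicates, with no call (log2 fold change 0.25 ± 0.11, adjusted p = 0.074). It passed when libraries were scaled by their totals alone (adjusted p = 0.030), with at least 10 counts in every library (adjusted p = 0.043) and without senescent replicate 2 (adjusted p = 0.032). Of the 5 tested genes of the list, *Zrsr1* and *Mcts2* are annotated as protein coding. *Kcnq1ot1* alone of the 5 was called, and none was lower.

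A list of 16 mostly noncoding HOX cluster genes had 13 in the table, 6 of them antisense, and *Hotairm1* was the 1 selected. *Hotairm1* (ENSMUSG00000087658, chr6:52156902-52162119, plus strand) fell from 6.24, 6.98 and 8.05 CPM to 5.23, 5.30 and 5.46 CPM (log2 fold change -0.41 ± 0.11, adjusted p = 0.010). It was the 1 antisense gene among the 4 of the list that could be tested, of which a processed transcript and the lincRNA *Gm26633* were also lower and *Gm53*, annotated as protein coding, was higher. A list of 24 developmental noncoding genes, most with opposite-strand names, had 7 tested, of which 3 were lower, 3 gave no call and the lincRNA *Fendrr* was higher. *Dnm3os*, *Emx2os* and the processed transcript *Foxd2os* were the lower ones, and *Dlx6os1*, an enhancer-derived RNA also known as Evf2, was at 6.40 to 7.60 CPM in control and 6.39 to 8.55 CPM in senescent cells with no call (log2 fold change 0.07 ± 0.13, adjusted p = 0.62). No gene listed as a snoRNA host (10 tested, 4 higher and 0 lower) or under inflammation and stress (11 tested, 6 higher and 2 lower) was among the 44. Beside these counts over lists, 36.2% of all tested genes were higher and 34.1% lower.

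Each antisense gene was next set beside the coding gene it overlaps, to see whether both strands changed alike. An overlapping coding gene was found for 36 of the 44, and 33 of these could be tested. Where there were several, the one with the largest overlap was taken, and at equal overlap the one with the larger summed count. Of the coding partners 14 were higher, 8 lower and 11 gave no call, where 38.8% and 35.1% of all tested coding genes were higher and lower. Both genes were higher in 7 pairs and lower in 2, the antisense gene was higher and the partner lower in 2, and the reverse held in 5. In 4 pairs the antisense gene alone was called, in 6 the partner alone, and in 7 neither. Whether the change differed between the strands was tested on the ratio of their counts with limma, over all 257 such pairs of the table. The ratio of antisense to partner was higher in 10 and lower in 14 of the 33 pairs at an adjusted p under 0.05, where 23% and 26.8% of all pairs were higher and lower. Per length of exon, the level of the antisense gene as a percentage of that of its partner was taken as the median over libraries. This median was between 1.82% and 3688%, with a median over pairs of 38.9%, and it was above the level of the partner in 10 pairs. Single libraries could lie outside this range.

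**Figure D3:**
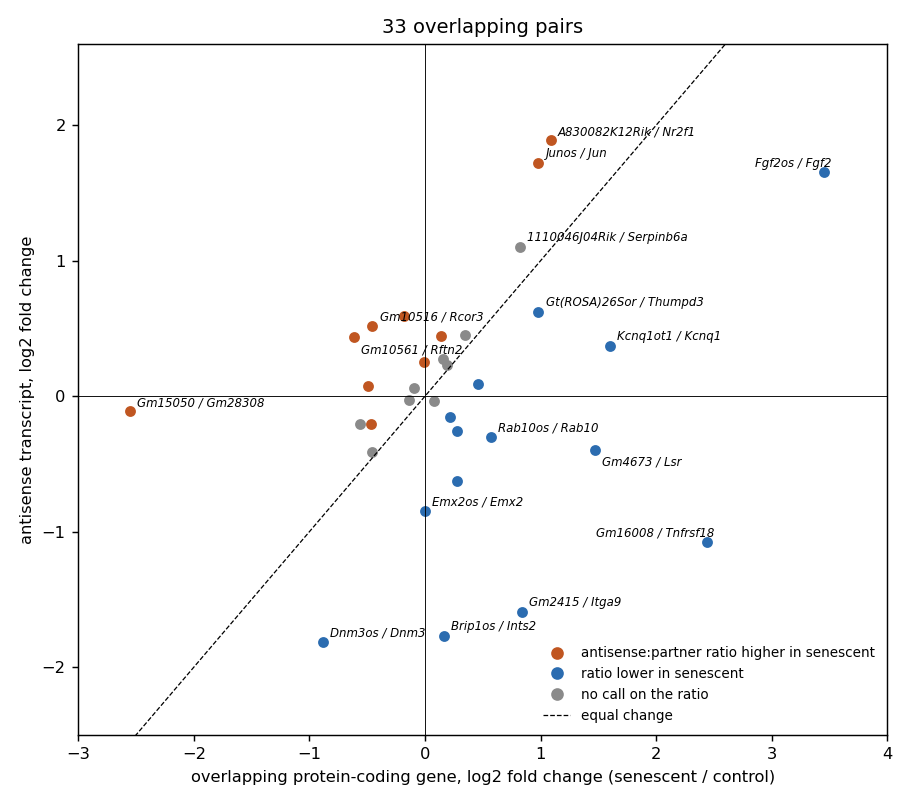
For 33 pairs, the log2 fold change of the antisense gene (y axis) is plotted against that of the overlapping coding gene (x axis), each senescent over control with 3 samples per group, and color gives the call on the ratio of their counts by limma at an adjusted p under 0.05. Points below the dashed line of equal change had a lower ratio in senescent cells, and *Gm16008* with *Tnfrsf18* and *Fgf2os* with *Fgf2* lie farthest to the right below it.

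Of the 5 largest decreases of the ratio, 4 were of pairs in which the coding gene rose, and the other was that of *Brip1os*. *Tnfrsf18* rose from 0.241, 0.218 and 0.102 CPM to 1.15, 1.12 and 0.841 CPM while *Gm16008* fell, and the log2 ratio changed by -3.56 ± 0.33 (adjusted p = 2.03e-09 by limma). *Tnfrsf18* had only 12, 13 and 5 counts in control libraries. Of the exon bases of *Gm16008*, 54.3% lie in exons of other genes, and reads there cannot be told apart. *Itga9*, the α9 integrin subunit, rose from 7.12, 7.05 and 7.66 CPM to 13.6, 12.6 and 12.8 CPM while *Gm2415* fell, a log2 ratio change of -2.44 ± 0.14 (adjusted p = 1.50e-13). *Gm2415* was thus at 208% to 248% of the level of *Itga9* per length in control and at 32.9% to 51.7% in senescent libraries. *Fgf2os* itself rose and *Fgf2* rose more, from 13.8, 12.0 and 12.7 CPM to 136.2, 136.6 and 149.8 CPM (log2 fold change 3.46 ± 0.08, adjusted p = 2.63e-08). Their log2 ratio changed by -1.78 ± 0.17 (adjusted p = 3.92e-09), and the antisense gene went from 10.2% to 16.04% of the level of *Fgf2* per length to 3.19% to 3.99%.

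*Ints2*, a subunit of the Integrator complex, lies wholly within *Brip1os* and was at 43.1 to 50.02 CPM in control and 49.3 to 56.6 CPM in senescent cells with no call, so that the log2 ratio fell with *Brip1os* (-1.94 ± 0.05, adjusted p = 4.08e-21 by limma). *Med13*, a Mediator subunit that *Brip1os* also overlaps, rose from 88.9 to 102 CPM to 134 to 175 CPM (log2 fold change 0.67 ± 0.11, adjusted p = 0.00081). *Lsr*, a lipoprotein receptor gene at 0.151 to 0.261 CPM in control and 0.498 to 0.776 CPM in senescent cells, rose while *Gm4673* fell from 5.66 to 6.02 CPM to 4.204 to 4.81 CPM (log2 ratio change -1.84 ± 0.35, adjusted p = 0.00010). *Usf2*, a coding gene on the other strand that starts 606 bases from *Gm4673* without overlap, fell as well (log2 fold change -0.77 ± 0.09, adjusted p = 0.000105 by edgeR). *Rab10* rose (log2 fold change 0.57 ± 0.08, adjusted p = 0.00029) while *Rab10os* fell, a log2 ratio change of -0.87 ± 0.07 (adjusted p = 3.54e-10). *Dnm3* fell less than *Dnm3os* (log2 fold change -0.88 ± 0.09, adjusted p = 6.58e-05), and per length the antisense gene was 4516% to 4992% of *Dnm3* in control and 2185% to 2860% in senescent libraries.

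In the other direction, *Gm15050*, in the HOXA cluster, was at 3.13 to 3.72 CPM in control and 2.80 to 3.38 CPM in senescent cells with no call, while the overlapping coding gene *Gm28308* fell from 4.33 to 5.30 CPM to 0.740 to 0.900 CPM (log2 fold change -2.56 ± 0.13, adjusted p = 1.52e-06). The log2 ratio rose by 2.43 ± 0.17 (adjusted p = 6.02e-12 by limma). *Gm15050* also lies wholly inside *Hoxa3*, and *Gm28308* was taken as partner for its larger summed count (958 against 316). *Hoxa3* gave no call (log2 fold change 0.44 ± 0.22, adjusted p = 0.11 by edgeR), so the rise of the ratio holds for *Gm28308* alone. *Gm10561* rose from 6.33 to 6.76 CPM to 8.15 to 9.86 CPM opposite *Rftn2*, the raft protein raftlin 2, which fell from 42.3 to 43.4 CPM to 27.0 to 29.1 CPM, a log2 ratio change of 1.05 ± 0.10 (adjusted p = 3.36e-09). *Gm10516* rose from 5.77 to 7.01 CPM to 8.71 to 10.3 CPM opposite the corepressor gene *Rcor3*, which fell from 35.0 to 37.0 CPM to 24.6 to 29.9 CPM, a log2 ratio change of 0.98 ± 0.10 (adjusted p = 8.81e-09). These were the 2 pairs with a higher antisense and a lower coding gene, and in either the groups did not overlap for any of the genes.

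*Gm15417* rose (log2 fold change 0.59 ± 0.11, adjusted p = 0.0021) opposite *Zbtb7b*, a transcription factor gene that gave no call (log2 fold change -0.18 ± 0.16), a log2 ratio change of 0.78 ± 0.13 (adjusted p = 2.69e-05 by limma). *Dlx6os1* gave no call but its partner *Dlx6*, a homeobox gene, fell from 23.9 to 25.6 CPM to 16.4 to 18.6 CPM, and the log2 ratio rose by 0.56 ± 0.11 (adjusted p = 0.00012). For the imprinted pairs the calls on the ratio were less stable. *Igf2r*, the receptor gene silenced by *Airn*, stayed at 299 to 310 CPM in control and 300 to 307 CPM in senescent cells (log2 fold change -0.01 ± 0.05, adjusted p = 0.88), and the log2 ratio change of 0.26 ± 0.11 (adjusted p = 0.048) lost its call in a fit to the stacked counts of both genes (adjusted p = 0.11) and when control replicate 1, 2 or 3 or senescent replicate 1 or 3 was left out (adjusted p = 0.057 to 0.22). *Kcnq1*, a potassium channel gene with 4 to 6 counts in a control and 17 to 26 in a senescent library, rose (log2 fold change 1.60 ± 0.29, adjusted p = 0.0015). The log2 ratio of *Kcnq1ot1* to it fell by 1.19 (adjusted p = 0.037), a call lost without control replicate 1 or 2 or any senescent replicate (adjusted p = 0.051 to 0.15).

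The arrangement of the pairs was set beside their calls, as counts with no test between arrangements. Beside them, 36.2% of all tested genes were higher and 34.1% lower, and the ratio was higher in 23% and lower in 26.8% of all pairs. Of the 12 head-to-head antisense genes 6 were higher and 2 lower, and their ratio to the partner was higher in 6 and lower in 3. Of the 8 tail-to-tail genes 2 were higher and 3 lower, and their ratio was higher in 1 and lower in 5. All 4 genes that contain a coding gene were lower or without a call (3 and 1), those inside a coding gene were 4 higher and 1 lower of 10, and those that overlap none were 2 higher and 5 lower of 8.

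Because the largest overlap need not be the shared start, the 23 antisense genes were last set beside the opposite-strand coding gene that begins within 2000 bases of them. Those changed more than 2-fold were *Brip1os*, *Gm2415*, *A830082K12Rik*, *Map2k3os* and *Junos*, and each moved the same way as its coding gene. Among the smaller changes some pairs moved alike, some went apart, and others held a gene without a call. Beside these, 36.2% of all tested genes were higher and 34.1% lower. Whether a larger change goes with a shared direction was not tested, and the window of 2000 bases was chosen after the data had been seen. *Brip1* starts 177 bases from *Brip1os* without overlap and fell from 26.5, 24.1 and 24.4 CPM to 1.57, 1.29 and 1.73 CPM (log2 fold change -4.03 ± 0.12, adjusted p = 8.64e-08), further than *Brip1os*. *Ctdspl*, whose span overlaps *Gm2415* at their starts with 2 bases between the 5′ ends, fell from 110.3, 114.3 and 111.1 CPM to 27.9, 28.4 and 25.7 CPM (log2 fold change -2.03 ± 0.06, adjusted p = 7.94e-08).

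**Figure D4:**
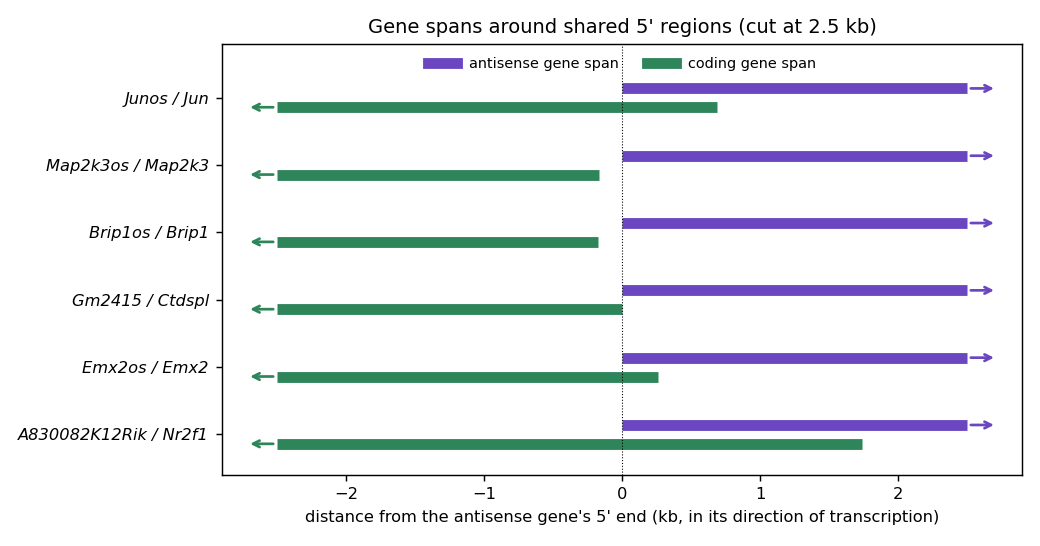
The spans of 6 antisense genes (purple) and of the coding gene on the other strand (green) are drawn around the 5′ end of the antisense gene at 0, in kilobases along its direction of transcription and cut at 2.5 kb, with arrows for the direction of each. *Map2k3* and *Brip1* begin 166 and 177 bases upstream without overlap, and *Jun*, *Emx2* and *Nr2f1* begin 688, 263 and 1740 bases inside the antisense gene.

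On the side of increases, *Jun* rose from 28.8, 35.2 and 34.3 CPM to 62.8, 73.8 and 57.3 CPM (log2 fold change 0.98 ± 0.11, adjusted p = 0.00013), with no overlap between groups. *Junos* rose more, as the log2 ratio rose by 0.75 ± 0.14 (adjusted p = 9.31e-05 by limma), and it went from 4.99% to 6.12% of the level of *Jun* per length in control to 7.66% to 11.9% in senescent libraries. *Nr2f1* rose from 4.97, 4.74 and 4.97 CPM to 10.0, 10.7 and 10.5 CPM (log2 fold change 1.09 ± 0.08, adjusted p = 9.22e-06), and the log2 ratio of *A830082K12Rik* to it rose by 0.79 ± 0.12 (adjusted p = 7.59e-06). *Map2k3* rose from 80.9, 79.8 and 86.4 CPM to 151.5, 150.2 and 132.9 CPM (log2 fold change 0.81 ± 0.07, adjusted p = 2.47e-05). The ratio of *Map2k3os* to it was not tested, as the 2 spans do not overlap.

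Other shared starts went apart. *Emx2* was at 32.1 to 33.5 CPM in control and 31.8 to 34.2 CPM in senescent cells (log2 fold change 0.00 ± 0.06, adjusted p = 0.996), while *Emx2os* fell, and their log2 ratio changed by -0.85 ± 0.09 (adjusted p = 9.19e-09 by limma). *Gt(ROSA)26Sor* starts 32 bases from *Setd5*, a chromatin regulator gene, which fell from 197 to 208 CPM to 140 to 160 CPM (log2 fold change -0.46 ± 0.07, adjusted p = 0.00053). *Gm16001* starts 56 bases from *Ogfod2*, which was called higher (log2 fold change 0.37 ± 0.14, adjusted p = 0.049) with overlapping groups. *Lsm2*, an RNA-binding protein gene that starts 74 bases from *Gm10501*, fell from 19.1 to 20.8 CPM to 9.73 to 10.6 CPM (log2 fold change -0.95 ± 0.08, adjusted p = 1.61e-05), while *Gm10501* was at 2.17 to 2.64 CPM in control and 2.78 to 3.104 CPM in senescent cells with no call (log2 fold change 0.28 ± 0.12, adjusted p = 0.058). *Gm10501* passed with RLE scaling, with library size alone, with at least 10 counts in every library and without senescent replicate 3 (adjusted p = 0.023 to 0.045).

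**Figure D5:**
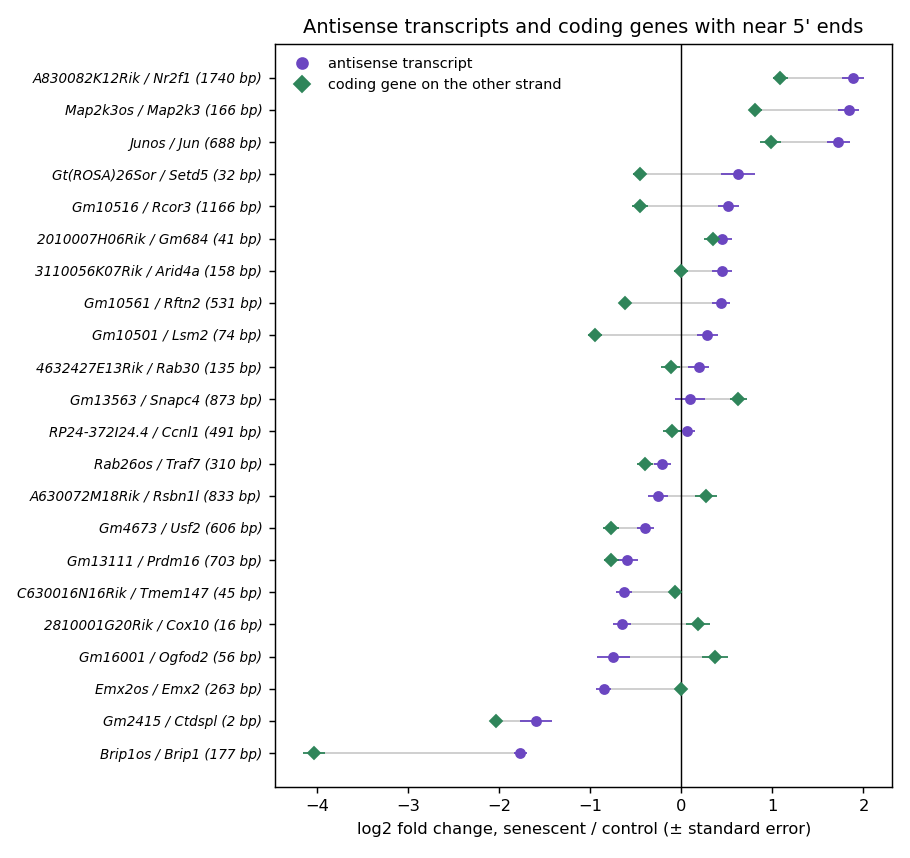
For 22 of the 23 antisense genes with an opposite-strand coding gene starting within 2000 bases, the log2 fold change (senescent over control, x axis) of the antisense gene (circles) and of the coding gene (diamonds) is plotted with standard errors from the fit over 3 samples per group, with the distance between their 5′ ends in bases. *A830082K12Rik*, *Map2k3os*, *Junos*, *Gm2415* and *Brip1os* lie on the same side of 0 as their coding gene, whereas *Gt(ROSA)26Sor*, *Gm10516*, *Gm10561* and *Gm16001* lie on the opposite side.

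The other antisense genes with a call had log2 fold changes between -0.65 and 0.45. *2810001G20Rik*, *C630016N16Rik*, *1810059H22Rik* and *Gm13111* were lower, and *2010007H06Rik* and *3110056K07Rik* were higher. *Gm13111* starts 703 bases from *Prdm16*, a transcription factor gene of brown fat, and both were lower, with log2 fold changes of -0.59 ± 0.12 and -0.77 ± 0.08 (adjusted p = 0.0022 and 8.12e-05 by edgeR). *Gm15564* varied most between replicates, at 7.12, 3.31 and 3.21 CPM in control and 3.50, 3.42 and 9.35 CPM in senescent replicates. Control replicate 1 and senescent replicate 3 were high, and its log2 fold change of 0.27 ± 0.46 (adjusted p = 0.62) was -0.38 without senescent replicate 3. The remaining genes without a call had log2 fold changes between -0.26 and 0.28, and in 11 of the 44 genes the control and senescent values overlapped.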

How the data were processed

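Polyadenylated RNA of 3 control and 3 senescent MAF samples was sequenced from both ends over 100 bases after a stranded library preparation from 200 ng of total RNA. Within MAPRSeq, the authors used STAR for mapping to mm10 and Subread for quantification, and deposited raw counts per gene. Groups followed the labels. The annotation release and the strand setting of the counting are not given in the sources used here.

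Counts were filtered with filterByExpr, scaled by TMM and compared with edgeR 4.0.16 (quasi-likelihood, robust, group as the only term, two-sided, R 4.3.3), with Benjamini-Hochberg adjustment over 17589 genes. The ratio of antisense to partner was tested with limma 3.58.1 on log2 counts plus 0.5 over 257 pairs. The partner was the coding gene with the largest overlap, or at equal overlap the larger summed count. Strand and exons came from GENCODE M21 (41 of 44 genes matched by identifier). Named genes were the 8 with the largest counts, the 8 largest increases and decreases, members of the gene lists, the 5 largest changes of the ratio each way, and pairs in opposite directions. Others named, such as *Gm15564*, *Gm10501*, *Gm13111*, the neighbours at shared starts, *Malat1* and *Neat1*, were picked with their values known. The genes and lists were chosen with earlier results of these data known. An exact permutation test of 3 against 3 samples cannot go below p = 0.1 and was not used. Both tests were tested on simulated data. Alternatives were other scalings, filters, DESeq2 1.42.0, a replicate term, other partners and limits, and leaving out each library. The coding neighbour of 1 antisense gene is not reported here.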

Additional observations from a re-analysis of the deposited data

How the results depend on the processing

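The numbers of higher and lower antisense genes (14 and 15) lay between 12 and 16 and between 15 and 19 under other scalings, other filters, DESeq2, a replicate block or the loss of any 1 library. At the study's limit on fold change they were 6 and 5, with a minimum summed count of 500 they were 24 and 26, and with 5000 they were 2 and 3, since these settings take other genes or ask for a larger change. With scaling by library size alone 20 partners were higher and 8 lower, against 14 and 8. Leaving out each library gave 12 to 16 higher and 7 to 9 lower partners, and 7 to 10 higher and 11 to 13 lower ratios. Where the partner had to cover at least 50% of the antisense span, fewer pairs remained, with 7 higher and 4 lower partners and 3 higher and 7 lower ratios. No alternative that was run reversed a called change. With scaling by library size alone the median log2 fold change of all genes moved from 0.0085 to 0.086.

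Samples with the same replicate number did not deviate together (r = -0.145, 0.135 and -0.120), and these numbers pair nothing in the labels. With the replicate number as a block, 13 antisense genes were higher and 15 lower, 13 partners were higher and 8 lower, and 9 ratios were higher and 12 lower. Of the antisense genes *Kcnq1ot1* alone lost its call with the block (log2 fold change 0.35, adjusted p = 0.062 by edgeR), and 1 partner and 3 ratios lost theirs.

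Depth limits the pairs with low partners, such as *Kcnq1* with 84 counts in all, *Lsr* with 158 and *Tnfrsf18* with 254, whereas all 44 antisense genes had at least 1029. The limits given for 0 counts cover counting error alone, as reads carried no molecular identifiers.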
